A study of Homo sapiens with 6 samples.

Results

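The 10 genes described here encode the cytokines LIF, IL6 and IL11, their receptor chains LIFR, IL6R and IL6ST, and the related receptor chain OSMR. They also encode the kinase JAK1, the transcription factor STAT3 and its feedback inhibitor SOCS3. They were taken by gene symbol from a table of 54259 symbols, and all 10 were found. They were chosen by symbol with their CPM in shBry against shNC already known, so that difference is given below as a description with no test. RNA was sequenced from MDA-MB-231, an established human breast cancer line, in 3 libraries that carry a short hairpin RNA against brachyury (MDA-MB-231 shBry) and 3 libraries that carry a control hairpin (MDA-MB-231 shNC), to look for genes downstream of brachyury, a T-box transcription factor. Both groups thus carry a hairpin, and the labels name no other difference. The sources used here do not say how many hairpins or clones were used, or whether the libraries came from separate cultures, so the spread between libraries may be technical.

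Most cytokines of this family, LIF, IL6 and IL11 among them, signal through a shared receptor chain, gp130, which the gene IL6ST encodes. A ligand first binds a chain of its own (IL6R for IL6, IL11RA for IL11) or a second signaling chain (LIFR for LIF), and gp130 then joins the complex. Janus kinases bound to these chains phosphorylate STAT3, which enters the nucleus and switches on target genes, among them SOCS3, whose protein binds gp130 and shuts the signal off. In breast cancer the pathway is known for links to invasion and to cells that renew the tumor. The libraries measured RNA alone, so neither secreted protein nor phosphorylation of STAT3 was seen.

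The libraries held between 19319411 and 22985371 counts. Brachyury, listed as T, had 0 counts in all 6 libraries, those of shNC included. The hairpin's target could thus be used to check neither the labels nor the knockdown. The study describes brachyury as constitutively overexpressed in this line. VIM, a mesenchymal marker that this line is known for, had 3860 ± 142 CPM in shNC and 3201 ± 152 CPM in shBry (SD, n = 3). CPM are counts per 1000000 counts of the library, scaled with TMM factors. ESR1 and CDH1, which the line is known to lack, never passed 1 and 2 counts in a library. Of the other markers listed for this line, PGR never passed 1 count. CD44 had 503 ± 18.5 CPM in shNC and 637 ± 4.52 CPM in shBry, and ERBB2 had 91.4 ± 3.65 and 67.5 ± 1.35 CPM. The deposited study description calls the RNA pericardial. Of the markers counted for that, 3 of 5 cardiac muscle genes were at 0 counts and none of the 5 passed 2 counts in a library. The 5 mesothelium markers summed to between 35.3 and 39 CPM in shNC and between 44.9 and 50.6 CPM in shBry. Most of it came from MSLN with 32 ± 3.84 and 45.8 ± 2.88 CPM, while ITLN1 was at 0 counts. CALB2 went the other way, with 4.62 ± 5.62 CPM in shNC and 0.809 ± 0.284 CPM in shBry. Its shNC mean rested on replicate 3, with 11.1 CPM against 1.37 CPM in replicates 1 and 2. A gene was called different when edgeR's quasi-likelihood test gave a Benjamini-Hochberg adjusted p under 0.05 over all 15277 tested genes and the fold change was above 1.5. With that rule, 32.4% of all tested genes were called, 17.1% as higher and 15.2% as lower in shBry. Of the 10 genes, 5 were called, all 5 as higher in shBry, and nothing is read from that count since this contrast chose them. At a fold change above 2 it was 4 of the 10, where 15% of all tested genes were called, and with no fold change limit 7 of the 10, where 53.3% were. In these cultures, a change in a share of the cells and a change in every cell cannot be told apart.

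All 3 cytokine genes were far higher in shBry than in shNC. LIF (chr22:30240447-30246851 of GRCh38, minus strand) encodes leukemia inhibitory factor, a cytokine that acts on stem cells and tumor cells. It had 49.6, 52 and 43.6 CPM in shNC replicates 1 to 3 and 539, 506 and 510 CPM in shBry replicates 1 to 3. The groups were far apart and the shBry libraries lay within 1.07-fold of each other. From means of 48.4 ± 4.33 to 518 ± 18.1 CPM (SD, n = 3), the fold change was 10.7, a log2 fold change of 3.42 (standard error 0.09).

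IL6 (chr7:22725884-22732002, plus strand) encodes the best known inflammatory cytokine of the family. Only 10, 10 and 7 reads were counted on it in shNC replicates 1 to 3, which are 0.458, 0.472 and 0.35 CPM. In shBry replicates 1 to 3 it had 854, 1090 and 1232 counts, which are 45.9, 45.9 and 54.6 CPM. IL6 was thus near the limit of detection in every shNC library and well measured in every shBry library. For the lowest shNC library, the exact Poisson interval (95%) of 7 counts runs from 0.141 to 0.722 CPM, which covers counting error only. The log2 fold change was 6.81 (standard error 0.18), or 112-fold, the largest difference among the 10 genes. Genes on the opposite strand cover 20.7% of its exon sequence, and the strand setting of the counting is not given in the sources used here.

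IL11 (chr19:55364389-55370463, minus strand) encodes a cytokine tied to fibrosis and to bone metastasis of breast cancer. Its values were 5.86, 6 and 5.3 CPM in shNC and 40.3, 37.1 and 39.5 CPM in shBry. The groups did not overlap, and the highest and lowest libraries of a group differed by at most 1.13-fold. The log2 fold change was 2.77 (standard error 0.12), a 6.8-fold difference, between means of 5.72 ± 0.367 and 39 ± 1.65 CPM.

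**Figure D1:**
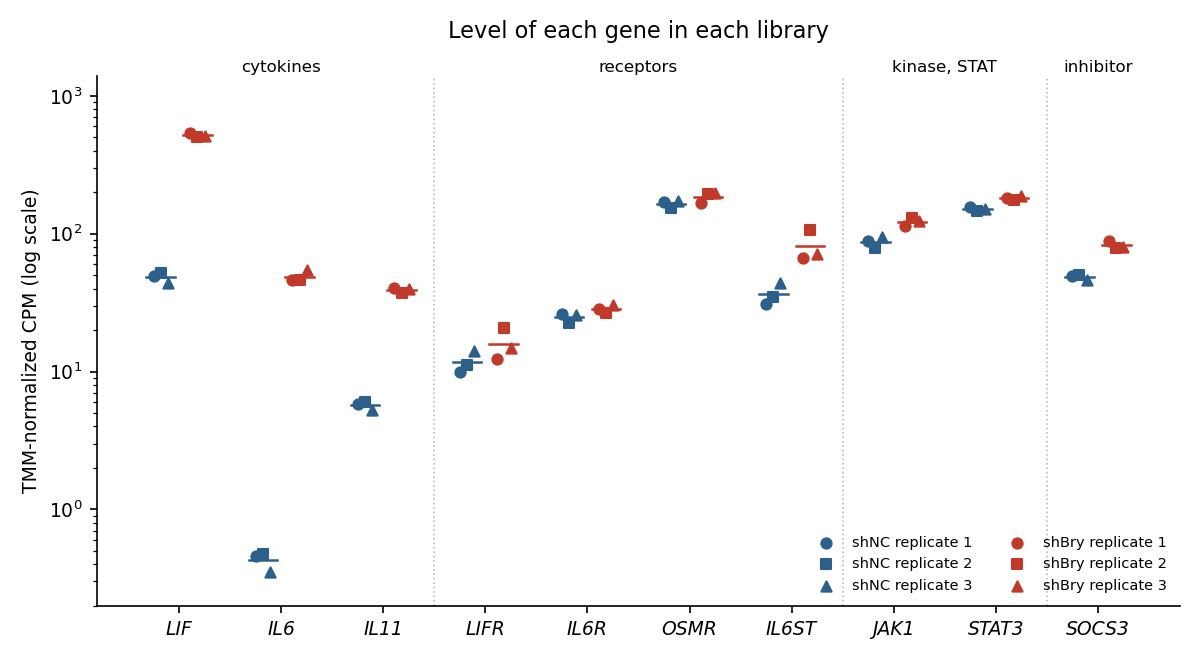
Level of each of the 10 genes in each of the 6 libraries, in TMM-normalized CPM on a log scale, with shNC in blue, shBry in red, the marker shape for the replicate number and a line at each group mean. LIF, IL6 and IL11 lie far apart between the groups, with means of 48.4 against 518, 0.427 against 48.8 and 5.72 against 39 CPM, while LIFR and OSMR overlap.

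Leukocytes are known to secrete cytokines, so their markers were read in the same libraries. The leukocyte markers PTPRC and TYROBP were at 0 counts in all 6 libraries. The summed level of the 9 leukocyte markers lay between 3.75 and 4.72 CPM in shNC and between 6.19 and 7.62 CPM in shBry. ITGAM, an integrin gene among these markers, made up most of the sum in shBry and was called higher. It had 4.93 ± 0.63 CPM in shBry against 1.05 ± 0.0749 in shNC, a log2 fold change of 2.23. CD14 went the other way and was called lower, with 0.759 ± 0.219 CPM in shBry against 1.85 ± 0.138 in shNC. CSF1R was not called, with 1.14 ± 0.406 CPM in shBry and 1.41 ± 0.576 in shNC. The 5 fibroblast markers summed to between 29.9 and 34.9 CPM in shNC and between 31.5 and 35.2 CPM in shBry, with DCN at 0 counts. Most of that sum came from COL1A1, with 21.9 ± 2.51 CPM in shNC and 21.9 ± 1.37 CPM in shBry. PDGFRB followed with 10.6 ± 0.591 and 11.1 ± 1.76 CPM, and neither gene was called.

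The DNA before the start of IL6 and of IL11 is shown because these are the cytokine genes with the steepest and the third steepest difference. Both are the 250 bases before the RefSeq start on GRCh38.p14, chr7:22726950-22727199 on the plus strand and chr19:55370464-55370713 on the minus strand, written 5′ to 3′ along the gene. Capitals mark, in IL6, the CRE core on the minus strand, a C/EBP motif on the minus strand and a kappa-B motif, in that order, and in IL11 an AP-1 motif.
IL6: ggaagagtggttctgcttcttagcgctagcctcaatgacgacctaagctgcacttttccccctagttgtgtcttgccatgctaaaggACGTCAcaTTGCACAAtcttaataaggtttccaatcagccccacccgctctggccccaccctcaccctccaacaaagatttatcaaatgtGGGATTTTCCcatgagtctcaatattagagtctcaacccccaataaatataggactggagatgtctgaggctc
IL11: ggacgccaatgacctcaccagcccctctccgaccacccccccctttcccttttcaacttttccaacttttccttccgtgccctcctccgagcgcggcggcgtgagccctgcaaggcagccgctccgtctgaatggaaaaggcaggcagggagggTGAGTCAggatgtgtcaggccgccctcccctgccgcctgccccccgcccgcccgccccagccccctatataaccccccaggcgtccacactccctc
Counted back from the start, the CRE core of IL6 runs from -163 to -158, the C/EBP motif from -155 to -148 and the kappa-B motif from -73 to -64. In IL11 the AP-1 motif runs from -96 to -90. Each motif was searched on both strands in the same 250 bases before each of 35116 RefSeq starts, called windows here. The CRE core (TGACGT) was in 7.1% of them, the C/EBP motif (TTNNGCAA) in 9.05%, the kappa-B motif in 9.96% and the AP-1 motif (TGANTCA) in 6.57%. Other members held some of these motifs too, with kappa-B in IL6ST, the CRE core in 1 window of JAK1, and C/EBP in OSMR and in 1 window of LIFR. The T-box motif (TCACACCT), the kind of letters brachyury is known to bind, was in 0.786% of windows and in none of the 14 windows of the members. The STAT motif (TTCNNNGAA) was in 6.57% of windows and, among the members, only in 2 of the 3 windows of LIFR. No window of LIF was in the table used. Such matches are letters in a window and say nothing of binding.

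Of the 4 receptor genes, IL6ST alone was called higher, and LIFR, IL6R and OSMR, with fold changes of 1.37, 1.14 and 1.12, were not called. IL6ST (chr5:55935095-55994993, minus strand) encodes gp130, the chain shared by LIF, IL6 and IL11. It had 30.9, 34.7 and 44.2 CPM in shNC replicates 1 to 3 and 66.9, 107 and 71.8 CPM in shBry replicates 1 to 3. All shBry libraries lay above all shNC libraries, but shBry replicate 2 stood well above the other two. The log2 fold change was 1.16 (standard error 0.17), a 2.24-fold difference. Without shBry replicate 2 it was 0.91, and over all fits that left out 1 library it lay between 0.91 and 1.30.

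LIFR (chr5:38474963-38608354, minus strand) encodes the chain that LIF binds. Its values were 10, 11.1 and 14.1 CPM in shNC and 12.4, 20.6 and 14.8 CPM in shBry. The groups overlapped, with shBry replicate 1 below shNC replicate 3. The log2 fold change of 0.45 (standard error 0.18) rested on single libraries, since it was 0.21 without shBry replicate 2 and 0.60 without shBry replicate 1. In the latter fit LIFR joined the called genes, which made 6 of the 10.

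OSMR (chr5:38845858-38945596, plus strand) encodes the oncostatin M receptor chain and lies in the same stretch of chromosome 5 as LIFR. It had 169, 153 and 172 CPM in shNC and 166, 194 and 196 CPM in shBry. These ranges overlapped, and the log2 fold change was 0.17 (standard error 0.09). IL6R (chr1:154405193-154469450, plus strand) encodes the IL6-binding chain. It had 26.3, 22.5 and 25.6 CPM in shNC and 28.3, 26.4 and 30.2 CPM in shBry. The shBry values lay just above the shNC values, and the log2 fold change was 0.19 (standard error 0.11).

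Downstream of the receptors, the differences were small for the kinase and the transcription factor and larger for the inhibitor. JAK1 (chr1:64833229-64966504, minus strand), which encodes the main kinase bound to gp130, had 87.8, 79.1 and 94.1 CPM in shNC and 114, 130 and 123 CPM in shBry. The groups did not overlap, but the log2 fold change of 0.49 (standard error 0.09), or 1.41-fold, was under the fold change limit. STAT3 (chr17:42313324-42388568, minus strand) had 155, 146 and 152 CPM in shNC and 183, 177 and 187 CPM in shBry. It had the tightest libraries of the 10 genes, within 1.06-fold in each group, and a log2 fold change of 0.27 (standard error 0.08), or 1.21-fold.

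SOCS3 (chr17:78356778-78360077, minus strand), the inhibitor that STAT3 itself induces, had 49.6, 50 and 46.5 CPM in shNC and 88.2, 79.2 and 80.6 CPM in shBry. Every shBry library was above every shNC library. The log2 fold change was 0.76 (standard error 0.09), a 1.7-fold difference from 48.7 ± 1.91 to 82.7 ± 4.86 CPM. In 8 of the 10 genes the values of the groups did not overlap, as in 59.5% of all tested genes.

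**Figure D2:**
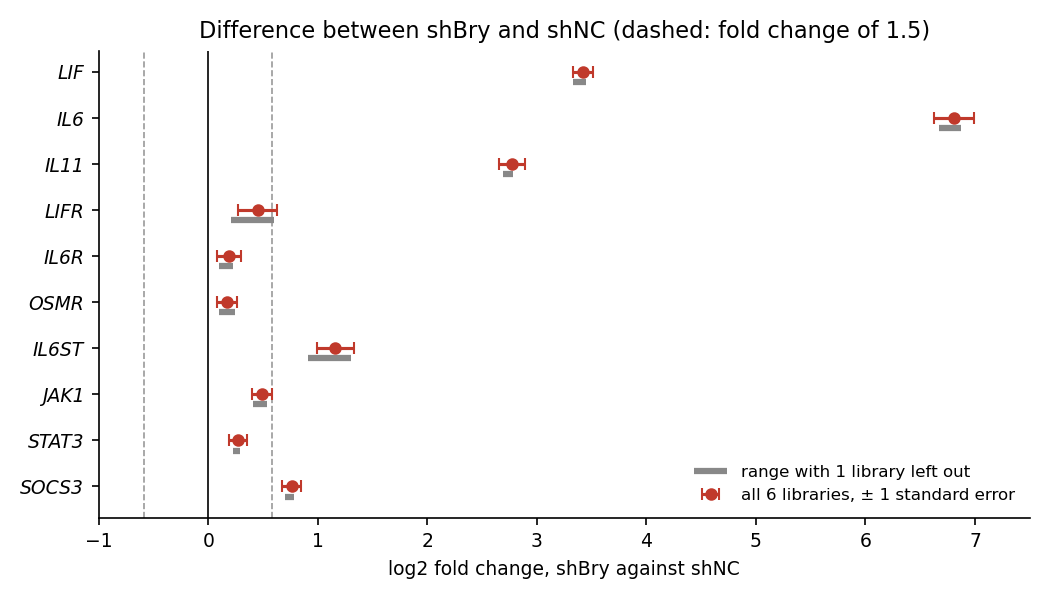
Log2 fold change of the 10 genes in shBry against shNC, with points and bars for the value and 1 standard error over all 6 libraries and gray bars for the range when 1 library is left out. The cytokine genes lie between 2.77 and 6.81, IL6ST at 1.16 and SOCS3 at 0.76, while LIFR, with a range from 0.21 to 0.60, is the only gene whose range crosses the dashed line at a fold change of 1.5.

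To compare the genes with each other, CPM were divided by the kilobases of annotated exon sequence (GENCODE 29, all transcripts of a gene merged), which understates genes whose long exons are little used. In shNC the order was led by OSMR with 23 ± 1.44 CPM per kilobase, SOCS3 with 17.8 ± 0.697, STAT3 with 17.1 ± 0.538, JAK1 with 13.8 ± 1.19 and LIF with 12.2 ± 1.09. Levels of SOCS3 and STAT3 overlapped between libraries, as did those of JAK1 and LIF. Below them came IL6ST with 3.94 ± 0.742 and IL6R with 3.84 ± 0.314, which also overlapped, then IL11 with 2.14 ± 0.138, LIFR with 0.987 ± 0.177 and IL6 with 0.206 ± 0.0322.

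In shBry, LIF led with 131 ± 4.55 CPM per kilobase, above SOCS3 with 30.2 ± 1.78. OSMR with 25.8 ± 2.36 and IL6 with 23.6 ± 2.41 overlapped, as did STAT3 with 20.7 ± 0.559 and JAK1 with 19.4 ± 1.34. IL11 followed with 14.6 ± 0.619, IL6ST with 8.81 ± 2.34 and IL6R with 4.39 ± 0.291. LIFR was the lowest of the 10 genes in shBry, with 1.34 ± 0.358 CPM per kilobase, and the second lowest in shNC. IL6 thus went from the last to the fourth place and from below IL6R in shNC to above it in shBry. LIF stood above LIFR in both groups.

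**Figure D3:**
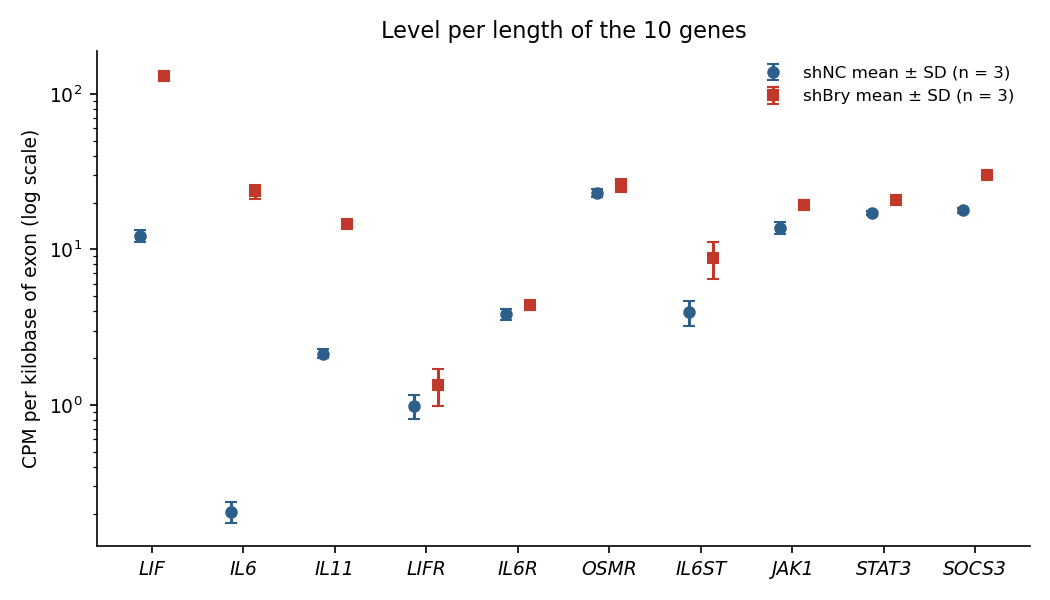
Mean level per length of the 10 genes in CPM per kilobase of exon on a log scale, with bars for the SD over 3 libraries, shNC in blue and shBry in red. LIF is at 131 in shBry, above all the other genes, and LIFR is at 1.34, below them.

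Within a group, LIFR and IL6ST varied more than the other 8 genes in shBry. The highest shBry library was 1.67-fold above the lowest for LIFR and 1.6-fold for IL6ST, where the median of tested genes with at least 10 CPM was 1.18 and the 90th percentile 1.39. In shNC the ratios were 1.4 and 1.43, where the median was 1.14 and the 90th percentile 1.35. For LIFR, IL6ST and JAK1 the highest libraries were shBry replicate 2 and shNC replicate 3. These were also the libraries whose deviations from their group means went together most over 9411 genes, with a correlation of 0.546. With both left out, the same number of the 10 genes, 5, was called. What sets these libraries apart was not tested.

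**Figure D4:**
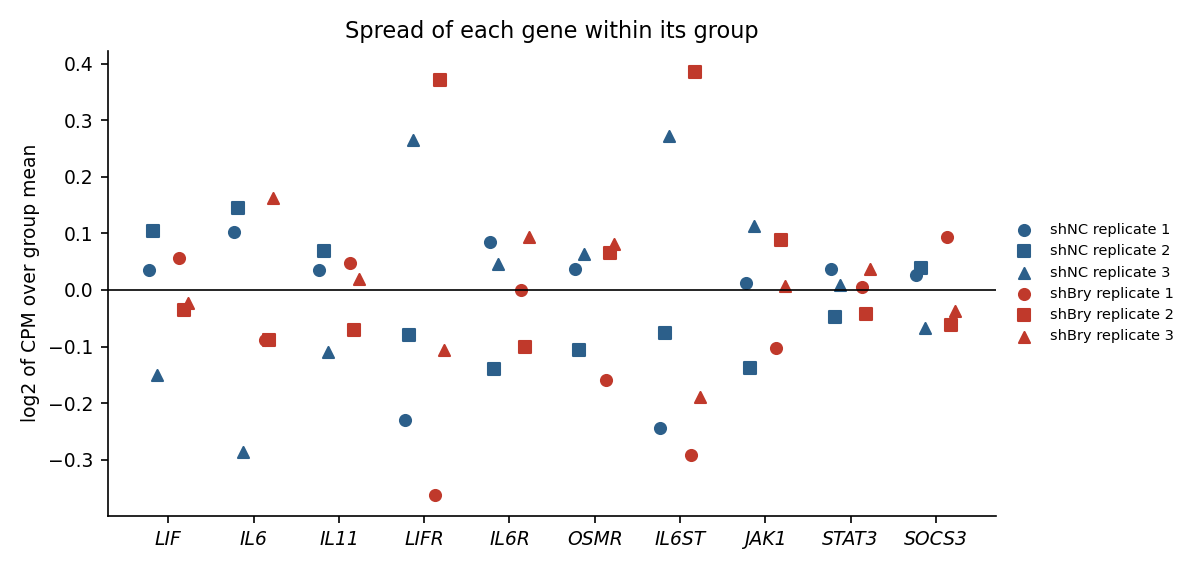
Log2 of the CPM of each library over the mean of its group for the 10 genes, with shNC in blue, shBry in red and the marker shape for the replicate number. LIFR and IL6ST spread most in shBry, with highest to lowest ratios of 1.67 and 1.6, and shBry replicate 2 and shNC replicate 3 are on top for both.

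The other genes of the pathway were read from lists written from general knowledge of gp130 signaling, with earlier results of these data known. Of 42 such genes, 37 had enough counts to be tested, 8 were called higher and 4 lower in shBry, and 25 were not called, where 17.1% of all tested genes were called higher and 15.2% lower. Their median log2 fold change was -0.00, beside 0.03 over all tested genes. All p below are Benjamini-Hochberg adjusted over all tested genes, from edgeR's quasi-likelihood test, and a log2 difference is the fitted log2 fold change of shBry over shNC with its standard error (SE).

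Among 8 other ligand genes of the family, 4 were tested and 2 were called, both higher. Of all tested genes, 32.4% were called and 17.1% were called higher. EBI3, the subunit that pairs with IL27 to form an active cytokine, rose from 7.55 ± 0.147 to 16.7 ± 0.471 CPM (SD, n = 3) (log2 difference 1.15, SE 0.13, edgeR adjusted p = 4.2e-06). CLCF1, a neurotrophic ligand, rose from 21.5 ± 1.75 to 37.7 ± 3.67 CPM (log2 difference 0.81, SE 0.11, edgeR adjusted p = 4e-05). IL27, the partner gene of EBI3, was at 0 counts in all 6 libraries. IL31 was at 0 counts too, and OSM, a neighbor of LIF on chromosome 22, had 1 count in all. Those at 0 counts could still reach up to 3 counts, which is 0.161 CPM in the library with the highest such limit. CTF1 and CNTF were tested without a call, at log2 differences of 0.22 and -0.52 (edgeR adjusted p = 0.32 and 0.42).

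The other receptor genes were listed together with ADAM10 and ADAM17, proteases that cut receptors. Of 5 tested genes in this list, 2 were called higher and 2 lower, where 17.1% of all tested genes were called higher and 15.2% lower. The called receptor genes went in both directions. IL11RA, which encodes the chain that binds IL11, fell from 10.5 ± 0.47 to 5.52 ± 0.72 CPM (log2 difference -0.92, SE 0.15, edgeR adjusted p = 0.00018), while its ligand gene was 6.8-fold higher. Exons of other genes cover 17.7% of IL11RA exon sequence. IL31RA (chr5:55851379-55922853, plus strand), which lies beside IL6ST on chromosome 5 and encodes a chain that pairs with OSMR, fell from 43.9 ± 3.67 to 28.6 ± 1.32 CPM (log2 difference -0.62, SE 0.10, edgeR adjusted p = 0.00016). It came under the fold change limit without shBry replicate 1 (-0.58) or shNC replicate 1 (-0.56). IL27RA, the chain that joins gp130 in the IL27 receptor, rose from 43.1 ± 2.32 to 69.8 ± 2.91 CPM (log2 difference 0.69, SE 0.09, edgeR adjusted p = 1.5e-05). CNTFR had at most 2 counts in any library.

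Soluble IL6 receptor is made when proteases cut IL6R from the cell surface. ADAM17, the protease known for this after stimulation, rose from 50.7 ± 6.39 to 80.2 ± 2.8 CPM (log2 difference 0.66, SE 0.10, edgeR adjusted p = 6.1e-05). Exons of other genes cover 13.6% of ADAM17 exon sequence. ADAM10, which cuts IL6R at rest, was not called. It had 64.8 ± 7.24 CPM in shNC and 46.2 ± 3.63 CPM in shBry (log2 difference -0.49, edgeR adjusted p = 0.0011) under the fold change limit.

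Of 9 other Janus kinase and STAT genes, all tested, 1 was called, where 32.4% of all tested genes were. With no fold change limit, 1 was higher and 3 were lower. STAT4 was called lower, with 0.973 ± 0.406 CPM in shNC and 0.159 ± 0.14 in shBry (log2 difference -2.49, SE 0.61, edgeR adjusted p = 0.0033), but it had at most 26 counts in any library. TYK2, another kinase that gp130 uses, had a log2 fold change of -0.35 (edgeR adjusted p = 0.0028), STAT5B had -0.27 (edgeR adjusted p = 0.012) and STAT5A 0.25 (edgeR adjusted p = 0.036), all under the fold change limit.

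Of 14 other brakes of the pathway, 4 were called, all 4 higher, where 32.4% of all tested genes were called and 17.1% were called higher. With no fold change limit, 4 were higher and 4 lower. PTPN2, a phosphatase that acts on Janus kinases and STATs, rose from 28.7 ± 2.08 to 52.8 ± 4.16 CPM (log2 difference 0.88, SE 0.10, edgeR adjusted p = 6.1e-06). SOCS2, which limits growth hormone signals, rose from 22.5 ± 1.76 to 38.3 ± 3.46 CPM (log2 difference 0.77, SE 0.11, edgeR adjusted p = 5e-05). SOCS1, the closest relative of SOCS3 in its action on Janus kinases, rose from 0.472 ± 0.233 to 1.72 ± 0.334 CPM (log2 difference 1.85, SE 0.38, edgeR adjusted p = 0.00087). CISH rose from 4.34 ± 0.677 to 6.75 ± 0.82 CPM (log2 difference 0.63, edgeR adjusted p = 0.0095), and lay under the fold change limit without shBry replicate 1 (0.57) or shNC replicate 3 (0.52). SOCS4 to SOCS7 were not called, nor were the 4 PIAS genes, whose proteins restrain STATs in the nucleus. The genes that were lower with no fold change limit were PIAS3 with a log2 fold change of -0.50 (edgeR adjusted p = 0.00027), PIAS2 with -0.54 (edgeR adjusted p = 0.0072), PIAS4 with -0.29 (edgeR adjusted p = 0.022) and SOCS5 with -0.53 (edgeR adjusted p = 0.036).

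Of the 5 adaptor genes that link the receptors to ERK and PI3K, SHC1 alone was called, where 32.4% of all tested genes were. SHC1 fell from 498 ± 11 to 301 ± 18 CPM (log2 difference -0.73, SE 0.08, edgeR adjusted p = 2.6e-06), with 15.2% of its exon sequence shared with other genes. PTPN11, whose protein SHP2 docks on the same site of gp130 as SOCS3, had a log2 fold change of 0.23 (edgeR adjusted p = 0.04) under the fold change limit.

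Of 21 genes known as STAT3 targets, 14 had enough counts to be tested, 9 were called higher and 1 lower in shBry, where 17.1% of all tested genes were called higher and 15.2% lower. Their median log2 fold change was 0.92, beside 0.03 over all tested genes. Many of them answer to other factors as well, and the list does not measure STAT3 activity. The list was also chosen with earlier results of these data known, so its counts beside those of all tested genes are a description. VEGFA, an angiogenic factor, had the smallest adjusted p and rose from 59.1 ± 2.41 to 357 ± 16.7 CPM (log2 difference 2.60, SE 0.08, edgeR adjusted p = 1.4e-11). JUNB, an AP-1 subunit that IL6 induces early, rose from 99.1 ± 12.2 to 385 ± 23 CPM (log2 difference 1.96, SE 0.10, edgeR adjusted p = 1.5e-09), and another gene covers 14.2% of its exon sequence. MYC, a growth regulator, rose from 252 ± 12.8 to 692 ± 28.2 CPM (log2 difference 1.45, SE 0.08, edgeR adjusted p = 2.9e-09). PIM1, a survival kinase gene, rose from 50.2 ± 3.3 to 107 ± 4.25 CPM (log2 difference 1.09, SE 0.09, edgeR adjusted p = 1.4e-07). BIRC5, which encodes survivin and is also a gene of dividing cells, fell from 160 ± 7.77 to 51.5 ± 4.16 CPM (log2 difference -1.64, SE 0.09, edgeR adjusted p = 2.9e-09).

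The other called targets were HIF1A, TIMP1, MCL1, CEBPD and SERPINA3, all higher. SERPINA3 had at most 18 counts in any library, and its call was lost without shBry replicate 2, shNC replicate 1 or shNC replicate 3, and in DESeq2. Another gene covers 31.8% of SERPINA3 exon sequence. MCL1, with a log2 fold change of 0.61, fell under the fold change limit when shBry replicate 2, shNC replicate 1 or shNC replicate 2 was left out. BCL3 (0.50), CCND1 (0.14), BCL2L1 (-0.14) and BCL6 (-0.29) were not called. The acute-phase genes of the liver FGA, FGB, FGG and CRP, and also TWIST1, were at 0 counts in all libraries, and HAMP and LBP reached at most 2 and 1 counts.

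**Figure D5:**
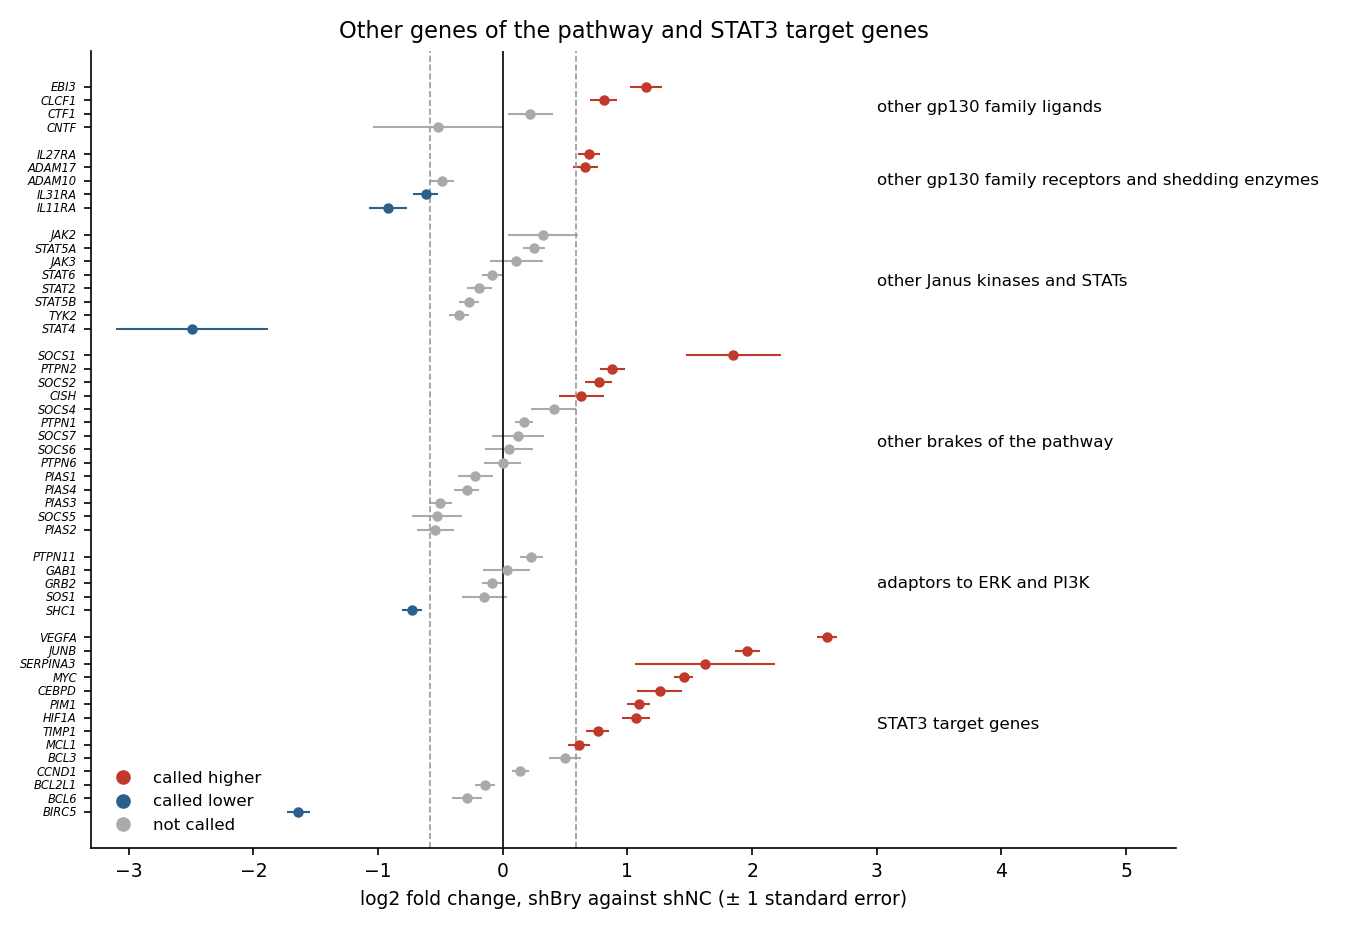
Log2 fold change in shBry against shNC of tested genes of the other pathway lists and of the STAT3 target list, with bars for 1 standard error, red for called higher, blue for called lower and gray for not called, and dashed lines at a fold change of 1.5. Calls go in both directions among the receptors, where IL27RA is at 0.69 and IL11RA at -0.92, and 9 of 10 calls among the STAT3 targets are higher.

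Genes whose profile over the 6 libraries was most like that of LIF or IL6 were found by the root mean square difference of log2 CPM (0.1 CPM added) after centering each gene on its own mean. For LIF the nearest were EGR1 (0.07), PLA2G4C (0.10) and CSF3 (0.11). EGR1 had 7.04 ± 0.453 CPM in shNC and 79.5 ± 5.33 CPM in shBry, PLA2G4C had 5.55 ± 0.552 and 55.6 ± 3.37 CPM, and CSF3 had 22.2 ± 1.44 and 276 ± 16.1 CPM. For IL6 the nearest were IL1A (0.31), CSF2 (0.32) and CXCL2 (0.43), with log2 fold changes of 6.82, 7.21 and 5.86. With 2 groups of libraries, this measure mainly finds genes with a fold change of like size.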

How the data were processed

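RNA of 3 MDA-MB-231 shBry and 3 MDA-MB-231 shNC libraries was analysed. The deposited table holds raw counts: whole reads per gene symbol and library, not normalized by the authors. Their processing notes name HISAT2 2.0.4, HTSeq and GRCh38; the annotation and the strand setting are not given in the sources used here. Samples were grouped by their shRNA label. Counts were filtered with filterByExpr (minimum count 10), scaled with TMM and compared in edgeR 4.0.16 (R 4.3.3) by its quasi-likelihood test. A gene was called at an adjusted p under 0.05, with the study's fold change limit of 1.5; the study does not name its test. The standard error is the log2 fold change divided by the square root of F. Totals lay between 19319411 and 22985371 counts per library, and intervals cover counting error only. Gene positions, exon lengths and overlaps came from GENCODE 29 by symbol, and the windows before gene starts from RefSeq on GRCh38.p14, with entries for 9 of the 10 genes.

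The members and lists were chosen with earlier results of these data known. The genes named are the 10 members, the called genes of each list (the 5 with the smallest adjusted p where more were called), the genes below the expression filter, and the 3 genes nearest in profile to LIF and to IL6. Other genes were named after their values were seen. A few genes of the lists are counted but not reported singly here. As alternatives, TMM was dropped, and DESeq2 1.42.0, limma-voom (limma 3.58.1), other filters and limits, the replicate number as a block, and leaving out each library were tried. The fit was tested on simulated counts of 15072 genes: 78.8% of 80 genes changed 2-fold and 100% of 115 genes changed by 2 on the log2 scale were called with the correct sign, beside 9 false calls. The simulation changed a far smaller share of genes than the 32.4% called in the real data, so its error rates may not carry over.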

Additional observations from a re-analysis of the deposited data

How the results depend on the processing

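Counts depended most on the fold change limit. At a limit of 2, the calls numbered 2297 over all genes and 3 among other pathway genes, and with no limit 8139 and 21. With 1 library left out, the ranges were 4587 to 5025 for all genes, 5 to 6 for members, 10 to 14 for other pathway genes and 8 to 10 for STAT3 targets. Library sizes without TMM, DESeq2, limma-voom and unadjusted p each left 5 members and 12 other pathway genes called. IL6 could not be tested under the filter of at least 10 counts in every library, since 1 shNC library had 7, and 4 members were then called. The log2 fold change of a member moved by more than the spread between its libraries in 1 of 129 cases, STAT3 without shNC replicate 2 (0.23). Among the other pathway genes and STAT3 targets that were called above, 12 of 283 values lost their call and none changed sign. Genes not called above were not followed singly in this way.

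With the replicate number as a block, 4914 genes in all were called, with 5 members, 12 other pathway genes and 10 STAT3 targets. The numbers did not pair the libraries: deviations from the group means correlated at 0.51, -0.314 and -0.112 for numbers 1, 2 and 3, and shBry replicates 2 and 3 correlated best with other numbers. Leaving out shBry replicate 2 and shNC replicate 3 together, chosen after seeing the data, gave 4958 genes in all, 5 members, 13 other pathway genes and 9 STAT3 targets. Depth limits STAT4, SOCS1, SERPINA3 and the shNC level of IL6, with at most 26, 50, 18 and 10 counts in a library.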
